A study of Mus musculus with 22 samples.

Results

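Keratins are the intermediate filament proteins of epithelial cells. A filament is built from pairs of 1 acidic type I and 1 neutral to basic type II chain, and each kind of epithelium makes its own pairs: Krt8 with Krt18 in simple epithelium, Krt5 with Krt14 in the basal layer of stratified epithelium, Krt1 with Krt10 in the upper layers of skin, and Krt4 with Krt13 in the upper layers of mucosa such as the oesophagus. In the thymus, cortical and medullary epithelial cells carry structural keratins. Medullary epithelial cells also transcribe many genes of other tissues, in part under the control of Aire, so that developing T cells meet those products. In the liver, hepatocytes make Krt8 and Krt18 and bile duct cells make Krt7 and Krt19 as well.

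The keratin members were all genes whose symbol is Krt followed by digits only, without Krt7 and Krt19, which left 49 of the 24786 genes in each table, 25 of type I and 24 of type II. They were measured by bulk RNA sequencing of C57BL/6 mice labelled as 2 to 4 weeks old, in 9 thymus libraries, 6 liver libraries and 3 libraries of sorted liver CD8+ T cells. The thymus groups were Aire-/-, TG Aire+/- and TG Aire-/-, with 3 libraries each. The liver groups were Aire+/+, TG Aire-/- and TG Aire-/- depleted of CD8+ T cells, with 2 libraries each. TG stands for the transgene that the series title calls dnTGFβRII, a dominant-negative TGF-β receptor expressed in T cells from the Cd4 promoter. No thymus group combined a functional Aire allele with absence of the transgene, so TG Aire+/- against Aire-/- differs in both. TG Aire-/- against Aire+/+ in liver differs in both as well, and in these comparisons the parts of transgene and Aire cannot be told apart. The mean of both Aire-/- genotypes against TG Aire+/- is not balanced for the transgene. The labels number the libraries of a group without saying whether they came from separate animals, so p-values measure the spread between libraries, part of which may be technical. Levels are RPKM (reads per kilobase of gene length, scaled to the mapped reads of the library), which are per length and so can be set side by side between genes.

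The depth of the libraries is not given. From the smallest steps in the values it was estimated at 22400000 to 29900000 reads in thymus and 20300000 to 22700000 reads in liver, and 3 reads of Krt4 would be about 0.047 to 0.0628 RPKM in thymus. Aire transcript ranged from 15.95 to 29.45 RPKM in the thymus libraries labelled Aire-/-, from 10.19 to 13.6 in TG Aire+/- and from 6.496 to 20.25 in TG Aire-/-. A value over the whole gene does not show whether a mutant transcript lacks the deleted part, so it does not check the labels. TG Aire-/- thymus replicate 1 stood apart from the other 8 thymus libraries. Its summed level of 8 cortical epithelial genes was 118.9 RPKM against 851.7 to 1015 in the others, that of 9 double-positive thymocyte genes was 198.9 against 1792 to 2426, and that of 6 adipocyte genes was 1078 against 69.98 to 136.3. Results that rest on it are given with and without it.

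In thymus the family split sharply by level. Only 7 members averaged at least 1 RPKM over the 9 libraries (Krt5, Krt8, Krt10, Krt14, Krt17, Krt18 and Krt20), and they are called abundant below. The other members are called low: 21 averaged from 0.1 to below 1 RPKM, 19 were above 0 but below 0.1, and Krt32 and Krt39, keratins of hair, were listed at 0 throughout. The 7 abundant members held 96.7 to 99.5% of the summed keratin RPKM of a library. In liver 4 members averaged at least 1 RPKM (Krt8, Krt18, Krt20 and Krt23), 6 lay from 0.1 to below 1, 15 were lower still, and 24 were listed at 0 in all 6 libraries.

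The simple epithelial pair was the most abundant in thymus. Krt8 was at 298, 209 and 197 RPKM in the Aire-/- libraries, 219, 211 and 198 in TG Aire+/-, and 38.1, 169 and 167 in TG Aire-/-. Krt18, its type I partner, was at 404, 268 and 261 in Aire-/-, 287, 266 and 247 in TG Aire+/-, and 49.2, 249 and 247 in TG Aire-/-. For both genes TG Aire-/- replicate 1 was far below every other library, while its sister replicates lay just below the range of the other groups for Krt8 and close to the lower end of it for Krt18. Krt18 remained 1.25 to 1.48 times Krt8 in all 9 libraries. Across the 9 libraries Krt8 and Krt18 correlated on the log2(RPKM + 1) scale with a Pearson r of 0.994 (exact permutation p = 8.82e-05, adjusted over 2 pairs 0.000176) and a Spearman rho of 0.883 (exact permutation p = 0.00307, adjusted 0.00615), and r was 0.801 (exact permutation p = 0.0206) without the 2 libraries farthest from the median. These libraries share tissue and normalization, so the relation describes them together.

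Krt17, a type I keratin of appendages and activated epithelium, followed at 140, 81.6 and 72.9 RPKM in Aire-/-, 111, 102 and 90.4 in TG Aire+/-, and 33.9, 64.8 and 51.4 in TG Aire-/-. Every TG Aire-/- library was below every library of the other groups. Krt17 differed by −1.05 on the log2(RPKM + 1) scale in TG Aire-/- relative to TG Aire+/- (SE 0.306), with an unadjusted p of 0.0069 that did not pass adjustment over all genes (limma, adjusted p = 0.892).

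The basal pair told the TG Aire-/- libraries apart in the opposite order. Krt5 was at 38.8, 53.7 and 34.5 RPKM in Aire-/-, 34.8, 36.0 and 39.0 in TG Aire+/-, and 48.6, 13.8 and 8.25 in TG Aire-/-. Krt14 was at 20.1, 11.7 and 10.8, then 18.6, 16.5 and 17.5, then 33.2, 8.99 and 5.15. TG Aire-/- replicate 1, lowest for Krt8 and Krt18, was thus the highest library for Krt14 and among the highest for Krt5, while the other replicates of its group were the lowest for both. The ratio of Krt5 plus Krt14 to Krt8 plus Krt18 was 0.938 in that library and 0.0324 to 0.137 in the other 8. Krt5 and Krt14 correlated with r = 0.79 over the 9 libraries (exact permutation p = 0.00713, adjusted over 2 pairs 0.00713) and rho = 0.667 (exact permutation p = 0.0589, adjusted 0.0589). Without the 2 farthest libraries, TG Aire-/- replicates 2 and 3, r was 0.192 (exact permutation p = 0.675), so the relation rested on those libraries.

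**Figure D1:**
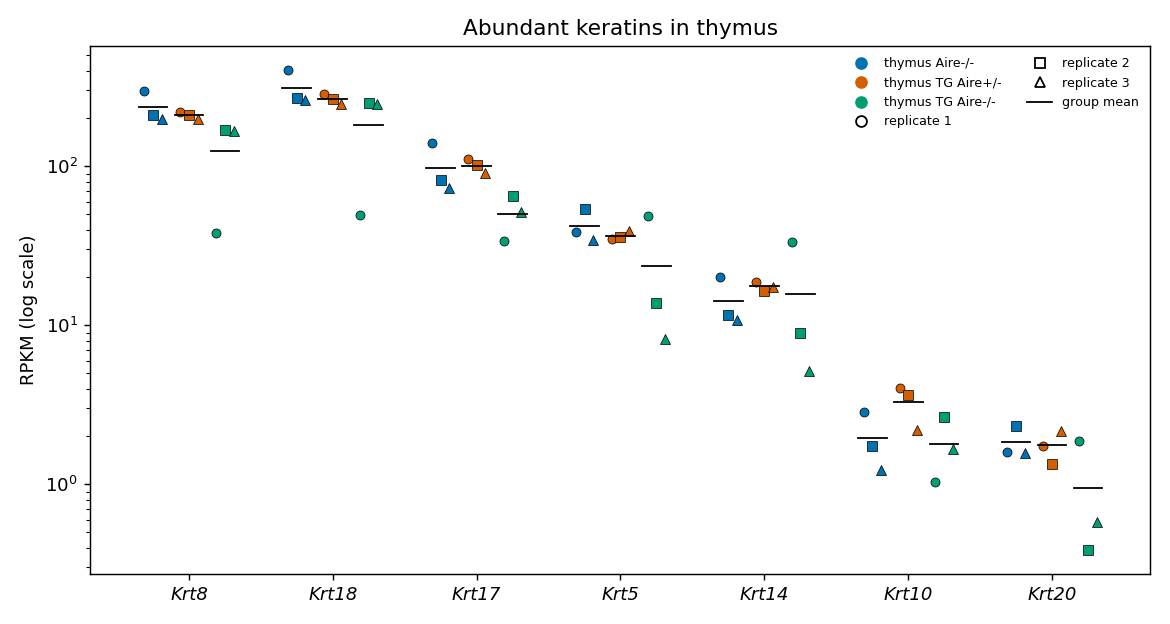
Levels of the 7 abundant keratins in thymus, in RPKM on a log axis, with 1 point per library, colour for group, shape for replicate number and a line for the group mean (n = 3). TG Aire-/- replicate 1 sits at 38.1 RPKM for Krt8, below the other 8 libraries, and at 33.2 for Krt14, above them.

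None of the 7 abundant members passed an adjusted p of 0.05 in any thymus comparison in the limma fit with genes at 1 RPKM or more in at least 3 libraries. Between TG Aire-/- and TG Aire+/-, which both carry the transgene and differ in Aire, all 7 estimates were below 0, with a median difference of −0.87 on the log2(RPKM + 1) scale beside −0.14 over all 12568 genes tested, and 1 of 7 had an unadjusted p under 0.05 (279 of all genes). The share of all genes called there was 0%. Between TG Aire-/- and Aire-/-, which differ in the transgene, all 7 estimates were again below 0 with a median of −0.95 beside −0.11, and 3 had an unadjusted p under 0.05 (Krt5, Krt8 and Krt17; 949 of all 12568 genes). The share of all genes called there was 0.0159%. The median over all genes came to 0.00568 and 0.00414 in these comparisons with median ratio scaling, and the members' median to −0.71 and −0.82. TG Aire+/- against Aire-/- gave 3 estimates above and 4 below 0 with a median of −0.042 and no unadjusted p under 0.05 (0% of genes called). The mean of both Aire-/- genotypes against TG Aire+/- gave 7 estimates below 0 and an unadjusted p under 0.05 for Krt10 only (0% called).

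Without TG Aire-/- replicate 1 Krt5 was the only abundant member called. The number of the 7 with an unadjusted p under 0.05 became 4 against TG Aire+/-, 4 against Aire-/- and 3 for both Aire-/- genotypes, and the last 2 comparisons had 6 of 7 estimates below 0. Without it Krt5 was lower in TG Aire-/- than in TG Aire+/- by −1.68 (SE 0.253, limma adjusted p = 0.0441) and lower than in Aire-/- by −1.86 (SE 0.253, limma adjusted p = 0.0355), where 0.403% and 0.153% of all genes were called lower. With the library, the same differences were −0.99 and −1.17. Krt8 and Krt18 moved the other way: their differences from TG Aire+/- shrank from −1.02 to −0.32 and from −0.87 to −0.10 without that library. Markers of cortical epithelium and of double-positive thymocytes moved with Krt8 and Krt18, with median differences of −0.80 and −1.51 with all libraries and −0.16 and −0.13 without replicate 1, and none called. The medullary epithelial markers, which include Aire, Fezf2 and Epcam, moved with Krt5 instead. Aire is 1 of the 8 and is itself the mutated gene, so its level cannot by itself stand for these cells. Set against TG Aire+/-, the markers' median in TG Aire-/- was −0.32 with all libraries and −0.81 without replicate 1. In the same order, 7 and 8 of 8 marker estimates were below 0, and 0 and 1 markers were called lower. Their summed level was 1621 RPKM in replicate 1, of which Ccl21a made 1556, and 88.93 to 377.1 in the other 8 libraries, and no marker was below 0.1 RPKM in any. The part of these cells in the keratin values was not tested, and in bulk tissue fewer cells of a type and less RNA per cell cannot be told apart.

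Krt10 and Krt20 closed the abundant set. Krt10, a type I keratin of skin that is also made in other cells, was at 2.87, 1.75 and 1.23 RPKM in Aire-/-, 4.01, 3.65 and 2.21 in TG Aire+/-, and 1.04, 2.64 and 1.67 in TG Aire-/-, with overlap between all groups. Krt20, a keratin of intestinal and other simple epithelium, was at 1.61, 2.32 and 1.58, then 1.74, 1.35 and 2.17, then 1.88, 0.388 and 0.582, with TG Aire-/- replicates 2 and 3 below the rest.

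The low keratins showed another pattern. In 9 of them every TG Aire+/- library was above all 6 libraries of the other groups: Krt4, Krt13, Krt76, Krt1, Krt77, Krt9, Krt84, Krt71 and Krt73. That was 9 of the 34 members with a mean of at least 0.1 RPKM in TG Aire+/- (26.5%), beside 1.77% of the 16370 genes that met the same minimum. No member lay below in the same sense, beside 0.165% of genes. The minimum was set in TG Aire+/- itself, and of the 9, Krt1, Krt4, Krt9, Krt13, Krt73 and Krt84 met it only through that group. Many keratins lie near the minimum, so the shares are a description and support nothing. Without TG Aire-/- replicate 1 the count was 11 of 34, beside 3.24% of all genes. By type, 7 of 17 type II members with that level and 2 of 17 type I members were among the 9, and without TG Aire-/- replicate 1 these were 7 and 4 of 17.

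The RefSeq promoters of those low keratins that passed the test below are shown with that of the abundant Krt5, which passed only without TG Aire-/- replicate 1. Krt4 had no entry. Each line holds the 100 bases before the annotated start, read 5′ to 3′ on the strand of the gene (all on the minus strand, GRCm38.p6). Capitals mark TATAAA or ATAAAA at 40 to 21 bases before the start, where a TATA box would lie.
Krt13, chr11:100121567-100121666: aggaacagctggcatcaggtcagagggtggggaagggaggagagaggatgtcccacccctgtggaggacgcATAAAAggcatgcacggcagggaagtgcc
Krt76, chr15:101892921-101893020: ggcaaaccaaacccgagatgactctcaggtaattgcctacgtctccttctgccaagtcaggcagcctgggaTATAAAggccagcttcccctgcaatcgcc
Krt84, chr15:101532821-101532920: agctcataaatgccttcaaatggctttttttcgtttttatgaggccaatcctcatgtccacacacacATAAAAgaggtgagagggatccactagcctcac
Krt9, chr11:100193247-100193346: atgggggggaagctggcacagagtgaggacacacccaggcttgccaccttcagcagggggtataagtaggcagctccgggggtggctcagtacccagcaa
Krt5, chr15:101712906-101713005: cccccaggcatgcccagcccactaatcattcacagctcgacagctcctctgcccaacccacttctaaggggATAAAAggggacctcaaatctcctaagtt

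The motif letters were present in Krt13, Krt76 and Krt84 and also in Krt5, and absent at that place in Krt9 and in the second RefSeq promoter of Krt13, which is not shown. Of the 49 members 34 had RefSeq promoters, 35 in all because Krt13 has 2. TATAAA or ATAAAA, which overlap where the letters read TATAAAA, lay at 40 to 21 bases before the start in 20 of the 35, beside 2.61% of all 32851 promoters of the same length. TATAAA was in 13 of the 35 (1.87% of all) and ATAAAA in 14 (1.55% of all). On the other strand of the same window neither was in a keratin promoter, beside 0.548% and 0.575% of all promoters. The match was shared by low and abundant members, and a match is a description of the letters only.

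Krt4, the type II keratin of mucosa (chr15:101918535-101924735, minus strand, GRCm38, GENCODE vM21), was at 0.385, 0.331 and 0.411 RPKM in TG Aire+/-. It was at 0.0601, 0.0142 and 0.0427 in Aire-/- and at 0.0146, 0 and 0 in TG Aire-/-, all at or near the level of 3 reads or fewer. Krt13, its type I partner (chr11:100117327-100121566, minus strand), was at 0.429, 0.290 and 0.268 in TG Aire+/-. It was at 0.0097, 0 and 0 in Aire-/- and at 0.0774, 0 and 0 in TG Aire-/-. For both genes the groups were separated by a wide gap, and the libraries fell into 2 sets, so that a correlation between the partners could not be tested. Krt76, a type II keratin of the hard palate and other oral mucosa (chr15, minus strand), was at 0.371, 0.440 and 0.525 in TG Aire+/-, 0.116, 0.337 and 0.164 in Aire-/-, and 0.0501, 0.0153 and 0.0201 in TG Aire-/-. Here Aire-/- lay between the other groups, with replicate 2 close to TG Aire+/-.

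Among skin keratins, Krt9, a type I chain of the thick skin of the footpad, was at 0.340, 0.287 and 0.276 RPKM in TG Aire+/-. It was at 0.0729, 0.0434 and 0.0523 in Aire-/- and at 0.0647, 0.0311 and 0.0148 in TG Aire-/-, with no overlap. Krt1, the partner of Krt10, was at 0.678, 0.468 and 0.281 in TG Aire+/- and at 0.0486 to 0.125 in the other 6 libraries. Krt77, a type II chain of skin, was at 0.927, 0.346 and 0.790 in TG Aire+/- and at 0.0203 to 0.255 elsewhere. Krt84, a type II keratin of hair, nail and tongue papillae, was at 0.237, 0.136 and 0.174 in TG Aire+/- and at 0 to 0.0349 elsewhere. Of the inner root sheath keratins, Krt71 was at 0.300, 0.265 and 0.446 in TG Aire+/- against 0.105 to 0.140 in Aire-/- and 0.217, 0 and 0 in TG Aire-/-. Krt73 was at 0.0529, 0.306 and 0.0604 in TG Aire+/- and at most 0.00737 elsewhere, so that 1 library carried most of it.

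**Figure D2:**
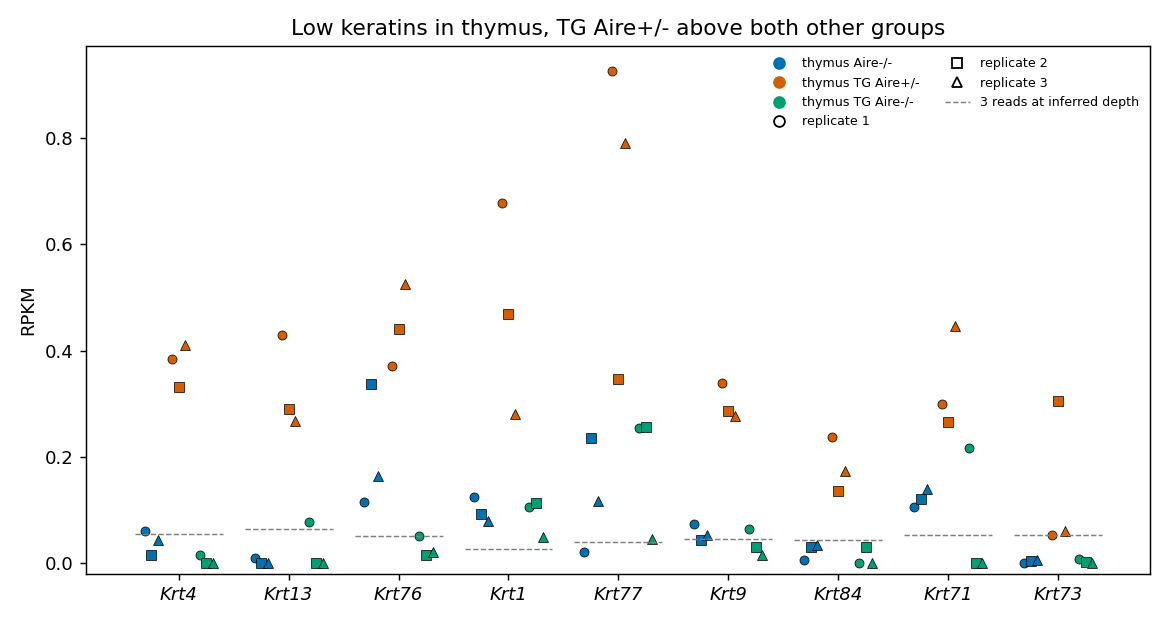
Levels in RPKM (linear axis) of the 9 low keratins whose TG Aire+/- libraries all lay above the 6 others, with 1 point per library, colour for group and shape for replicate number, and a dashed line at the mean level that 3 reads would give at the estimated depth. Krt4 stands at 0.331 to 0.411 in TG Aire+/- and at 0.0601 or less elsewhere, while Krt76 and Krt71 leave a narrower gap.

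Because these levels are below 1 RPKM they did not enter the filtered fit, and they were tested in the limma fit over all genes above 0 in at least 1 thymus library, which held 47 members. Between TG Aire-/- and TG Aire+/-, 4 of the 47 were lower in TG Aire-/- and none higher, beside 0.266% of all genes called lower. Krt4 differed by −0.45 on the log2(RPKM + 1) scale (SE 0.0312, adjusted p = 0.0025), Krt76 by −0.49 (SE 0.0709, adjusted p = 0.0463), Krt13 by −0.37 (SE 0.0501, adjusted p = 0.0369) and Krt9 by −0.33 (SE 0.0313, adjusted p = 0.0107), each lower in 3 of 3 libraries. Krt84 differed by −0.23 with an adjusted p of 0.0529. The pseudocount of 1 holds these values down, and with 0.1 the same differences were −2.18 for Krt4, −2.09 for Krt76, −1.81 for Krt13, −1.56 for Krt9 and −1.35 for Krt84, with all 5 called. Groups listed at 0 throughout add no spread, so limma p-values of such genes may be too small.

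Leaving out single libraries moved that count. It was 5 without TG Aire-/- replicate 1 (Krt4, Krt9, Krt13, Krt23 and Krt71, beside 0.334% of all genes), 2 without Aire-/- replicate 3, and 1 without TG Aire-/- replicate 2 or 3. Krt13 and Krt76 lost the call in 12 of 15 alternatives each (adjusted p up to 0.293 and 0.235) and Krt9 in 4 of 15 (up to 0.135). Krt4 was called in each of these leave-out fits, and lost the call (adjusted p = 0.0983) when the fit held only the groups compared.

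Both Aire-/- genotypes together against TG Aire+/- gave a like list, from libraries that this comparison shares with the one above. Aire-/- libraries without the transgene are part of this comparison, so it is not balanced for the transgene. Krt4 (−0.43, adjusted p = 0.00119), Krt9 (−0.31, adjusted p = 0.00471), Krt13 (−0.39, adjusted p = 0.0119) and Krt84 (−0.22, adjusted p = 0.0297) were lower in the limma fit, beside 0.27% of all genes called lower. Krt76 was at −0.38 with an adjusted p of 0.0746. Krt84 lost this call in 10 of 14 alternatives and Krt13 in 4 of 14. The count was 5 without TG Aire-/- replicate 1 (beside 0.415% of all genes), and 2 without TG Aire-/- replicate 2 or without Aire-/- replicate 3. TG Aire+/- against Aire-/- gave Krt4 (0.40, limma adjusted p = 0.0034), Krt9 (0.30, adjusted p = 0.0167) and Krt13 (0.40, adjusted p = 0.0283) as higher in TG Aire+/-, beside 0.19% of all genes. Krt13 lost the call in 11 of 15 alternatives, Krt9 in 9 and Krt4 in 2. The count there was 1 when any Aire-/- library, or TG Aire-/- replicate 2 or 3, was left out. TG Aire-/- against Aire-/- gave no member past the threshold in limma, beside 0% of all genes, with 6 of 47 members and 1489 of all 21083 genes at an unadjusted p under 0.05. Over the 47 members the median difference was −0.16 for TG Aire-/- against TG Aire+/- and −0.097 for both Aire-/- genotypes against it, beside −0.041 and −0.022 over all 21083 genes.

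The other low members did not pass the test with all 9 libraries, and some were not low in TG Aire-/- replicate 1. Krt23, which passed without that library, is a type I keratin of simple epithelium and was at 0.768, 0.639 and 0.757 RPKM in TG Aire+/-, 0.413, 0.269 and 0.233 in Aire-/-, and 0.893, 0.182 and 0.0766 in TG Aire-/-. Krt16, a type I keratin of activated epithelium, was at 0.713, 1.07 and 0.835, then 0.507, 0.677 and 0.345, then 0.884, 0.262 and 0.231 in the same order. In both, TG Aire-/- replicate 1 reached the TG Aire+/- range. Krt80 ran against the pattern in Aire-/-, with 0.0847, 0.535 and 0.341 there and 0.0646, 0.0775 and 0.0495 in TG Aire+/-. In TG Aire-/- Krt80 was at 0.392, 0.0225 and 0.0435, with replicate 1 above TG Aire+/- and the others below it. The summed level of all members other than the 7 abundant ones was 8.41 to 9.38 RPKM in TG Aire+/-, 4.26 to 5.69 in Aire-/-, and 7.14, 2.92 and 2.23 in TG Aire-/-.

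Most keratin genes lie in a type I cluster on chromosome 11 and a type II cluster on chromosome 15, which also holds the type I gene Krt18. Krt1, Krt77, Krt76 and Krt4 follow each other there among the keratin genes, and all 4 are among the 9 whose TG Aire+/- libraries lay highest. The next genes, Krt79 and Krt78, were not among them, and the abundant Krt8 and Krt18 follow. On chromosome 11 Krt9 is the keratin gene next to Krt14.

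**Figure D3:**
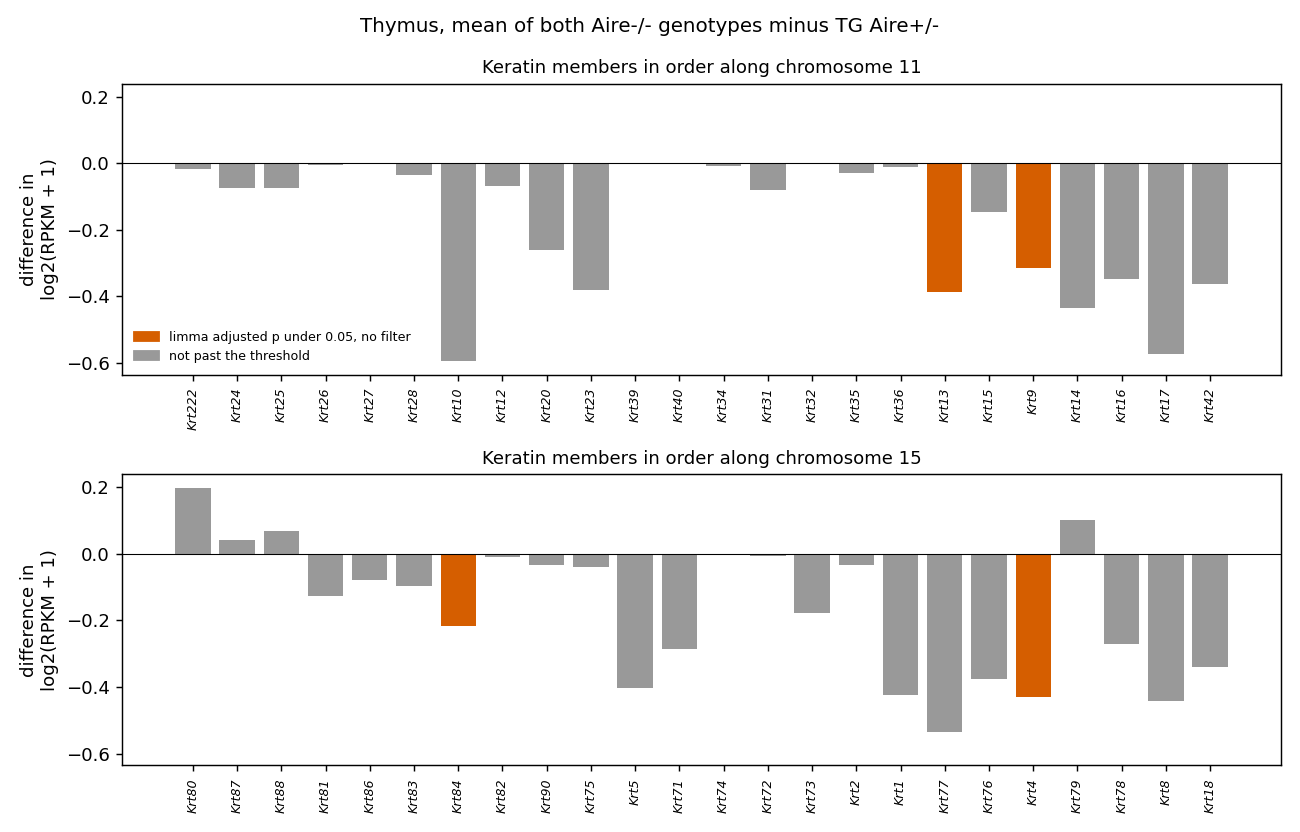
Difference in log2(RPKM + 1) between the mean of both Aire-/- genotypes and TG Aire+/- in thymus, as bars in gene order along chromosomes 11 (top) and 15 (bottom) for the 48 members with a position, with orange for members past a limma adjusted p of 0.05 in the fit with no filter. Krt13 and Krt9 on chromosome 11 and Krt84 and Krt4 on chromosome 15 are orange. Krt39 and Krt32, listed at 0 throughout, have no bar. The mean includes Aire-/- libraries without the transgene, so the difference is not balanced for it.

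Genes that act with keratins did not pass the test in thymus. Of 20 keratin partner genes, most of them of desmosomes and hemidesmosomes, 16 were tested. None was called by limma between TG Aire-/- and TG Aire+/-, with 13 estimates below 0 and a median of −0.42. The smallest p-values there were those of Pkp1, a desmosomal plaque protein (−0.91, unadjusted p = 0.012, adjusted p = 0.892), and Jup, plakoglobin (−0.93, unadjusted p = 0.031, adjusted p = 0.892). Of 12 regulators of epithelial genes 7 were tested and none was called, with a median of −0.24. Elf3 (−0.51) and Grhl2 (−0.29) had the smallest p-values there (limma adjusted p = 0.892 for each).

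In liver the simple epithelial pair dominated and differed widely between groups. Krt8 (chr15:101996698-102004482, minus strand) was at 61.3 and 54.6 RPKM in Aire+/+, 388 and 439 in TG Aire-/-, and 30.9 and 185 in CD8-depleted TG Aire-/-. Krt18 (chr15:102028180-102032027, plus strand) was at 74.2 and 65.3 in Aire+/+, 514 and 570 in TG Aire-/-, and 67.4 and 196 in the depleted livers. Both TG Aire-/- libraries were above the other 4 for each gene, and the depleted pair was wide apart, with replicate 1 near or below Aire+/+ and replicate 2 above it. The ratio of Krt18 to Krt8 was 1.20 and 1.21 in Aire+/+, 1.30 and 1.33 in TG Aire-/-, and 2.18 and 1.06 in the depleted livers. Krt20 was at 0.286 and 0.277 in Aire+/+, 1.58 and 17.5 in TG Aire-/-, and 0 and 0.0746 in the depleted livers. It passed the filter of 1 RPKM in at least 2 libraries only through TG Aire-/-, where its replicates differed more than 10-fold.

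Krt18 (2.94, SE 0.487, adjusted p = 0.00504), Krt8 (2.81, SE 0.714, adjusted p = 0.0207) and Krt20 (2.43, SE 0.763, adjusted p = 0.041) were higher in TG Aire-/- than in Aire+/+ by limma, each with both libraries above both. That was 3 of 4 members tested, beside 31.8% of all 12231 genes called higher, and since Krt20 could be tested only because it is high in TG Aire-/-, nothing is read from these counts. In the depleted livers Krt18 (−2.23, SE 0.487, adjusted p = 0.0126), Krt20 (−2.74, SE 0.763, adjusted p = 0.0276) and Krt8 (−2.43, SE 0.714, adjusted p = 0.0328) were lower than in TG Aire-/-, again 3 of 4, beside 33.5% of all genes called lower. Depleted livers against Aire+/+ gave no call among the 4, beside 0.548% of all genes, with an unadjusted p under 0.05 for Krt23. With 2 libraries a group the calls were not stable to leaving one out: the first count was 1 without either Aire+/+ library or TG Aire-/- replicate 1, and both counts were 0 without TG Aire-/- replicate 2.

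The whole liver profile shifted between these groups, with a median over all genes of 0.53 for TG Aire-/- against Aire+/+ and −0.58 for depleted against TG Aire-/- on the log2(RPKM + 1) scale. Quantile scaling moved these medians to −0.049 and 0.032 and the share of calls that were higher from 85.3 to 54.0% and from 11.8 to 44.0%. The median of the 4 members tested stood 2.09 and −1.75 from that of all genes in the main fit. With quantile scaling it stood 2.44 and −2.28 away. Krt20 is 1 of the 4 and passed the filter only through TG Aire-/-, so nothing is read from these distances. With no filter the median over 25 members was 0.0056 beside 0.28 over all genes, and −0.018 beside −0.32. Of the 25, 15 averaged below 0.1 RPKM. With quantile scaling Krt20 lost its call in both comparisons (adjusted p = 0.113 and 0.0732), and Krt8 in the second (adjusted p = 0.0535), while Krt18 was called in both. With no filter Krt8 (adjusted p = 0.0673 and 0.0917) and Krt20 (adjusted p = 0.113 and 0.0874) were called in neither.

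Krt23 did not follow the pair. It was at 2.27 and 2.80 RPKM in Aire+/+, 0.680 and 4.38 in TG Aire-/-, and 0.232 and 0.655 in the depleted livers, with TG Aire-/- on either side of Aire+/+ (−0.23, limma adjusted p = 0.734). Of the members under 1 RPKM on average, Krt80, a type II keratin, was at 0.0370 and 0 in Aire+/+, 0.533 and 1.36 in TG Aire-/-, and 0.125 and 0.320 in the depleted livers. In the fit with no filter it was higher in TG Aire-/- than in Aire+/+ (0.90, SE 0.217, limma adjusted p = 0.0447), and Krt18 was the other of 2 members called among 25 tested, beside 18.6% of all genes called higher. Krt80 lost the call when either Aire+/+ library, either depleted library or TG Aire-/- replicate 2 was left out. Krt222, a short type I keratin-like gene, was at 0.305 and 0.306 in Aire+/+, 0.317 and 0.2505 in TG Aire-/-, and 0.0166 and 0.124 in the depleted livers. It was lower in the depleted livers than in TG Aire-/- (−0.26, SE 0.0655, limma adjusted p = 0.0474), and with Krt18 it made 2 of 25 members called, beside 19.7% of all genes called lower. Krt222 lost the call with a pseudocount of 0.1 (adjusted p = 0.0715) and without any 1 library except depleted replicate 2 (adjusted p = 0.0914 to 0.155).

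Of Krt10, Krt17, Krt5 and Krt14, keratins of stratified epithelium, none passed the test in the fit with no filter at a pseudocount of 1. Krt10 was at 0.806 and 0.214 RPKM in Aire+/+, 0.667 and 0.359 in TG Aire-/-, and 0.301 and 0.386 in the depleted livers, with overlap of all groups. Krt17 was listed at 0 in both Aire+/+ libraries, at 0.222 and 0.778 RPKM in TG Aire-/-, and at 0 and 0.0332 in the depleted livers (0.56, limma adjusted p = 0.0768). With a pseudocount of 0.1 Krt17 was called higher in TG Aire-/- than in Aire+/+ (2.41, limma adjusted p = 0.0263) and lower in the depleted livers (−2.20, adjusted p = 0.0316). It was also called in both comparisons when TG Aire-/- replicate 1 (adjusted p = 0.00344 and 0.00348) or replicate 2 (adjusted p = 0.024 and 0.0253) was left out, where the lone TG Aire-/- library adds no spread of its own. Krt5 was listed at 0 in both Aire+/+ and both depleted libraries and at 0.0599 and 0.630 in TG Aire-/-. Krt14 was listed at 0 in Aire+/+, at 0.507 and 0 in TG Aire-/- and at 0.182 and 0.305 in the depleted livers. Krt4 did not exceed 0.0913, and Krt13, Krt9, Krt84 and Krt1 were listed at 0 in all 6 livers.

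**Figure D4:**
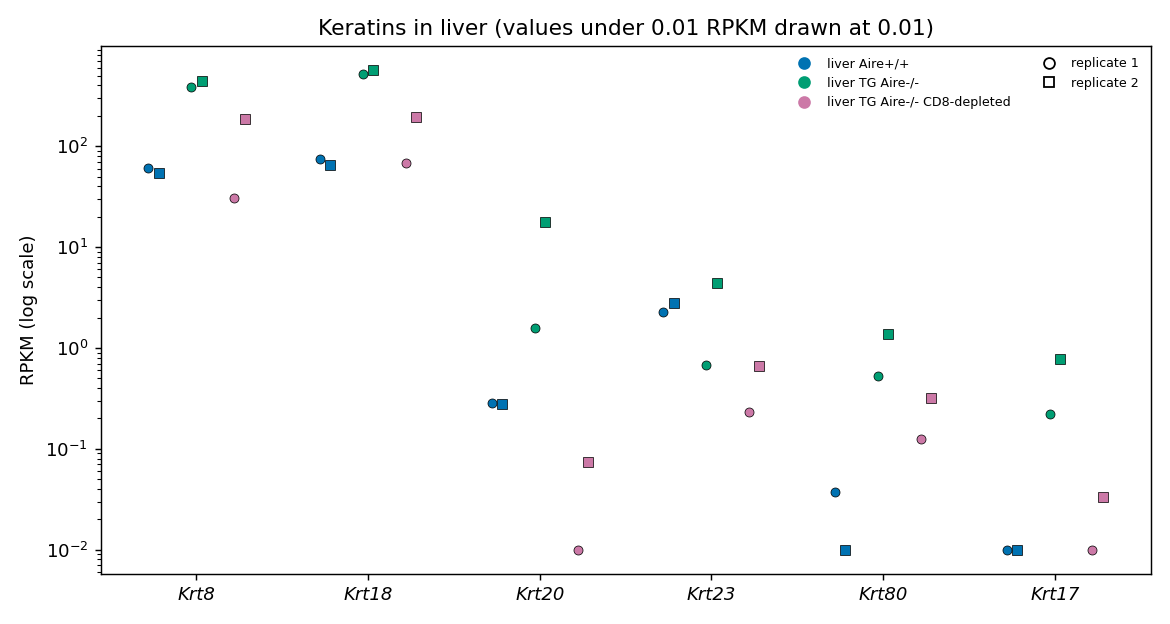
Levels of 6 keratins in liver, in RPKM on a log axis with values under 0.01 drawn at 0.01, with 1 point per library, colour for group and shape for replicate number (n = 2). Krt8 and Krt18 stand at 388 to 570 in TG Aire-/- and at 30.9 to 196 in the other groups, and Krt23 shows overlap of TG Aire-/- with Aire+/+.

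Marker lists of cell types were set beside the liver keratins. The summed level of 9 cholangiocyte genes, Krt7 and Krt19 among them, was 29.68 and 41.52 RPKM in Aire+/+, 57.62 and 116.3 in TG Aire-/-, and 22.05 and 106.9 in the depleted livers. Of these 7 were tested. In TG Aire-/- 2 were higher than in Aire+/+, beside 31.8% of all genes, and in the depleted livers 2 were lower, beside 33.5%. Krt7 is 1 of the 7 and met the filter of 1 RPKM in at least 2 libraries only because of TG Aire-/-. Krt7 was at 1.92 and 2.04 there and at most 0.607 in the other groups, so nothing is read from these counts. The summed level of 6 mesothelial genes was 2.88 and 3.37 in Aire+/+, 22.12 and 21.17 in TG Aire-/-, and 0.481 and 0.701 in the depleted livers. All 4 of them that were tested were higher in the first comparison and lower in the second. Msln, mesothelin, was 0.0833 to 0.111 in the depleted livers. These 4 met the filter of 1 RPKM in at least 2 libraries only because of TG Aire-/-, where they are high. For that reason nothing is read from their counts. The summed level of 7 hepatocyte genes was 55610 and 56170, then 37770 and 24710, then 63760 and 35400. All 7 estimates were below 0 in TG Aire-/- against Aire+/+, with 1 called lower, beside 673 of all 12231 genes. The part of these cells in the keratin values was not tested.

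Of the keratin partners 12 were tested in liver, and 2 were called in each comparison, beside the shares of all genes (31.8% higher and 33.5% lower). Itga6, the integrin α6 chain of hemidesmosomes (2.23, limma adjusted p = 0.00824), and Jup (0.84, adjusted p = 0.0428) were higher in TG Aire-/- than in Aire+/+. Both were lower in the depleted livers than in TG Aire-/- (−2.57, limma adjusted p = 0.00579, and −1.03, adjusted p = 0.0223). Itga6 met the filter of 1 RPKM in at least 2 libraries only because of TG Aire-/-, where it is high. For that reason nothing is read from the calls of Itga6. Of the regulators 4 were tested, and 1 was called in each comparison, beside the same shares of all genes. It was Klf4, a transcription factor of epithelial differentiation. Klf4 was higher in TG Aire-/- (2.04, limma adjusted p = 0.0255) and lower after depletion (−2.11, adjusted p = 0.0223). Klf4 also met the filter only because of TG Aire-/-, so nothing is read from its calls.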

How the data were processed

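RPKM values that the authors deposited, 1 table each for thymus, liver and CD8+ T cells, were used for 18 of 22 samples. The other 4 samples, livers with no batch in the title, were left out (not analysed here). Reads were aligned with STAR 2.5.2b to mm10, per the submitters' processing notes. For the counter and annotation, nothing is given in the sources used here. Groups came from the titles and genotype labels. limma 3.58.1 (R 4.3.3; trend, two-sided, Benjamini-Hochberg over all genes tested, threshold 0.05) was fitted to log2(RPKM + 1) with the 3 groups of a tissue in 1 fit, for genes at 1 RPKM or more in at least 3 thymus or 2 liver libraries. Low keratins were tested with no filter. The fit was tried on simulated data, with changes placed only in genes averaging above 1 on the log2(RPKM + 1) scale. Levels like those of the low keratins were therefore not covered. Steps of the low values gave whole reads (within 0.1 read) for 40.2 to 49.0% of them, so read counts were not recovered. Keratins were named if they averaged at least 1 RPKM in thymus or liver, passed the test in either fit, or had all TG Aire+/- values on 1 side of the 6 others with a mean of at least 0.1 RPKM. Krt16, Krt78, Krt79 and the keratins seen in CD8+ T cells were added to these with their values known. A planned correlation of Krt1 with Krt10 and Krt4 with Krt13 was not made, because Krt1, Krt4 and Krt13 fall into 2 sets of libraries. Positions came from GENCODE vM21, which held 48 of the 49 symbols, and promoters from RefSeq. The members and lists were chosen with earlier results of these data known. Alternatives were other scalings, pseudocounts, filters and sample sets.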

Additional observations from a re-analysis of the deposited data

Results flagged for a closer look

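The sorted liver CD8+ T cells enter no comparison above, since each genotype has 1 library, and no test was possible. In them 7 keratins exceeded the level of 3 reads at the estimated depth in at least 1 library. Values follow in the order Aire-/-, TG Aire+/-, TG Aire-/-. Krt8 was at 3.82, 0.327 and 0.181 RPKM. Krt18 was at 4.93, 0.131 and 1.07. Krt80 was at 1.46, 0.0516 and 0.0796. Krt10 was at 0.233, 0.0851 and 0.280. Krt222 was at 0.111, 0.216 and 0.291. Krt83, a hair keratin, was at 0.234 in Aire-/- and 0.125 in TG Aire-/-. Krt20 was at 0.281 in TG Aire+/- and 0.0970 in TG Aire-/-. In the Aire-/- library the summed level of 9 cholangiocyte genes was 24.89 RPKM, of which Krt19 made 10.75, against 2.51 and 3.03 in the others, and that of 7 hepatocyte genes was 5.61 against 3.58 and 2.46. Their part in the keratin values was not tested. Krt4, Krt13, Krt9 and Krt1 were listed at 0 in all 3 libraries, as were 35 members in all.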

How the results depend on the processing

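In the filtered fit no abundant keratin was called in thymus in the main setting. The number of keratins called became 4 with no filter and 5 with no filter and a pseudocount of 0.1 for TG Aire-/- against TG Aire+/-, 3 and 2 for TG Aire+/- against Aire-/-, and 4 and 4 for both Aire-/- genotypes against TG Aire+/-. Leaving out 1 library gave 0 to 1 in the first comparison and 0 to 1 for TG Aire-/- against Aire-/-. In liver, leaving out 1 library gave 0 to 2 calls for TG Aire-/- against Aire+/+ and 0 to 3 for the depleted livers against TG Aire-/-, and quantile scaling gave 1 in the latter. Settings tried on the fit with no filter were chosen after seeing the data. There the 4 calls of TG Aire-/- against TG Aire+/- became 2 with the replicate block, 2 with median ratio scaling, 1 with no trend, 0 with only the groups compared (fewer libraries for the spread) and 1 to 5 with a library left out. The 3 calls of TG Aire+/- against Aire-/- became 1 with the block, 0 with no trend, 0 with only the groups compared and 1 to 4 with a library left out. The 4 calls of both Aire-/- genotypes became 2 with no trend and 2 to 5 with a library left out. The cause of these changes was not tested. Where a group kept 1 library, it was assumed to vary like the others. Deviations of same-numbered libraries correlated from −0.183 to 0.766 in thymus and from −0.145 to 0.292 in liver, so the numbers were not taken to pair samples, and the block with the filter left the counts at 0 in thymus and at 3, 3 and 0 in liver. Signs turned with a library left out for Krt10 (−0.298 to 0.13) and Krt14 (−0.90 to 0.33) in TG Aire-/- against Aire-/-, for Krt23 (−1.07 to 0.61) in TG Aire-/- against Aire+/+ liver, and for Krt8 (−0.88 to 1.66) and Krt18 (−0.0456 to 1.48) in depleted liver against Aire+/+, none of them called. The correlation of Krt5 with Krt14 was 0.192 without the 2 farthest libraries and 0.567 to 0.906 with 1 left out. Depth limits what can be said of values near 3 reads.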
